A study of Mus musculus with 6 samples.

Results

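The receptors, adaptor and kinases that carry the Eda signal to NF-κB were followed in embryonic mammary buds that lack Eda and were given it back as a recombinant protein. The group holds 9 genes, chosen by gene identity and not by their values: the ligand Eda, the receptors Edar, Eda2r and Tnfrsf19 (also known as Troy), the adaptor Traf6, the kinase Map3k7 (Tak1) and the subunits Chuk, Ikbkb and Ikbkg of the IκB kinase. All 9 had a probe set among the 25949 that were measured. The deposited values are listed under Ensembl mouse gene identifiers and carry no gene names, so the names of the 9 genes are those given with the list of their identifiers.

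Eda is a Tnf family ligand of ectodermal organs, and its A1 isoform binds Edar on epithelial cells. Edar recruits the adaptor Edaradd, which brings in Traf6 and the kinase Tak1, and these activate the IκB kinase. This kinase marks IκB proteins for degradation and thereby frees NF-κB to enter the nucleus. Eda2r (Xedar) binds the A2 isoform of Eda instead, and Troy is a related receptor of skin and hair placodes with which Edar shares functions in hair follicle initiation.

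Transcripts were measured on 6 Affymetrix Mouse Exon 1.0 ST arrays, whose probes lie along the exons of each gene. Every array, controls included, held RNA of Eda-/- (Eda null) E13.5 mammary buds on a B6CBA background, freed by hand from most of the surrounding mesenchyme. In the control group (n = 3) the buds were kept for 4 h without added ligand, and in the Fc-Eda group (n = 3) for 4 h with Fc-Eda-A1, a recombinant protein that carries the A1 isoform. A pool held about 20 buds of 5 to 6 embryos according to the labels, and the buds of an embryo were divided between control and treatment, so that the arrays form 3 pairs from littermates. The study's methods give somewhat lower numbers of buds and embryos per pool. The question put to these genes was whether a short exposure to Eda changes the transcripts of its own signalling components.

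The values are log2 expression values, 1 per array and gene. The control array of pair 1 differed from the rest, with a median over all probe sets of 4.99 against 4.80 to 4.83 on the other 5 arrays, and what touches the 9 genes is given below as a shift of that pair. Markers of bud epithelium, mesenchyme and other cell types were not analysed here, since their identifiers carry no names. The brightness of a probe set also depends on its probes, so levels are compared between conditions of a gene and not between genes.

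Of the 9 genes, Edar, Tnfrsf19, Ikbkb and Chuk had a higher value after Fc-Eda treatment in each of the 3 pairs, and no gene had a lower value in each. Among all probe sets 13.2% were higher and 15.3% lower in every pair. The other 5 genes went in both directions, and the mean differences of Eda, Eda2r, Map3k7 and Ikbkg lay between -0.026 and 0.011 on the log2 scale. In limma with the pairs as a block none of the 9 passed a q-value of 0.05, and neither did any other probe set in either direction (0% higher and 0% lower), with 0.10 as the smallest q. Before adjustment, 3 of the 9 genes (Edar, Tnfrsf19 and Ikbkb) were higher and 0 lower at p under 0.05 in limma, against 2.73% and 3.33% of all probe sets. The median difference was 0.15 over the 9 genes and -0.024 over all probe sets, on the log2 scale. These shares and medians of all probe sets are not matched for level. In pair 1 probe sets as bright as Edar, Tnfrsf19, Ikbkb and Chuk were shifted upward and dim ones downward, as given below.

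**Figure D1:**
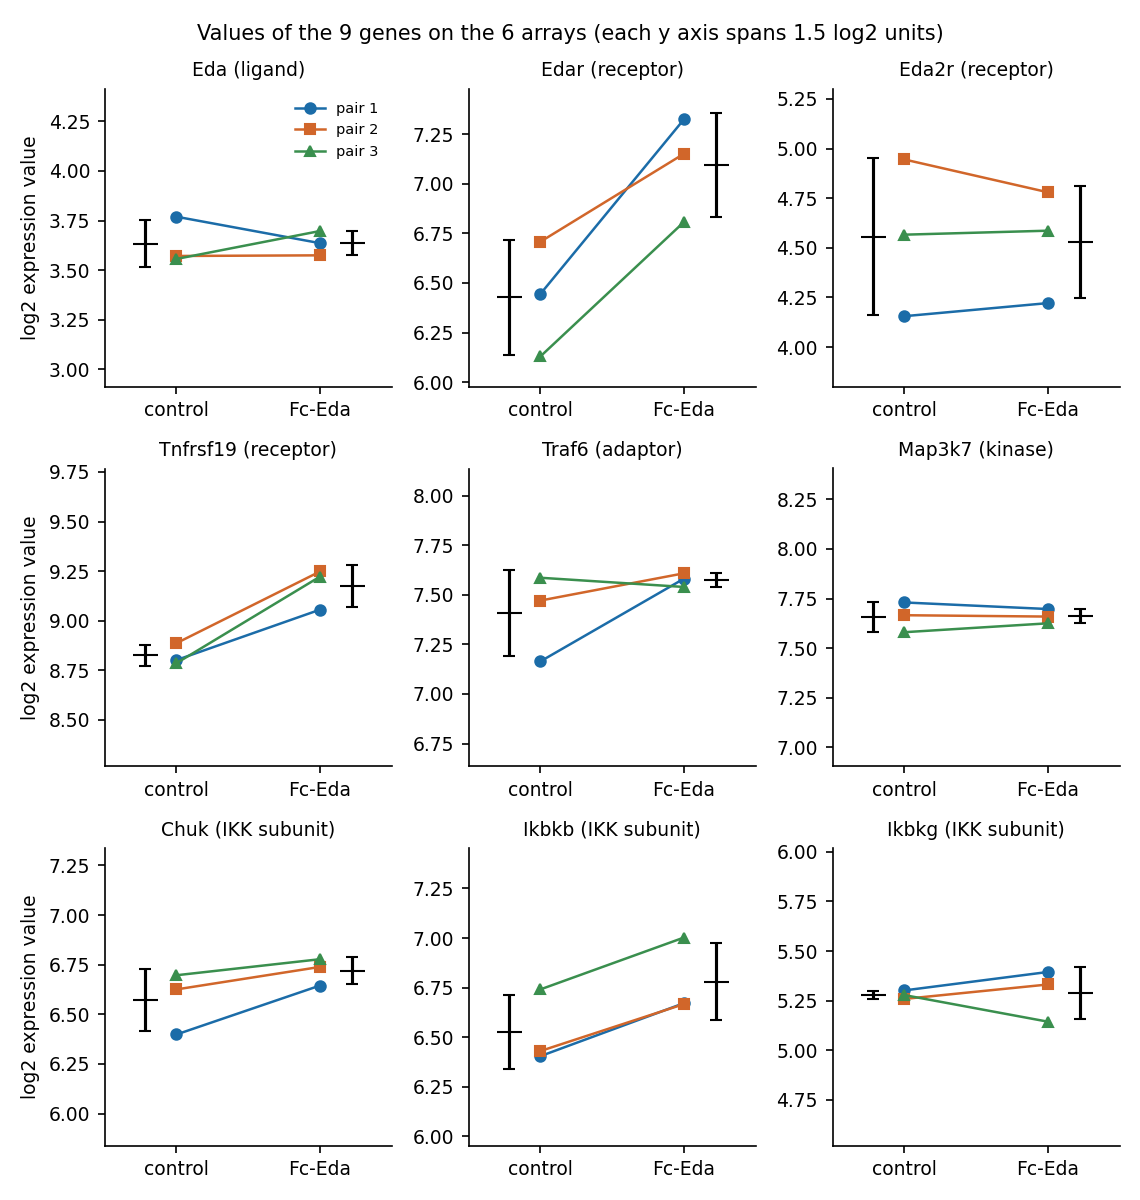
The log2 expression value of each of the 9 genes (y axes, each spanning 1.5 log2 units) on the control and Fc-Eda arrays, with lines joining the arrays of a pair and black bars for the mean ± SD of 3 arrays. All 3 lines go up for Edar, Tnfrsf19, Chuk and Ikbkb, and only for Edar and Tnfrsf19 do all Fc-Eda arrays lie above all control arrays.

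Edar (ENSMUSG00000003227_at), the receptor of the added ligand, had the largest difference of the 9 genes. Its log2 value in control medium was 6.44, 6.71 and 6.13 in pairs 1, 2 and 3, and after Fc-Eda treatment it was 7.32, 7.15 and 6.81. The lowest treated array thus lay above the highest control array, although the controls themselves spanned 0.58. Groups that do not overlap, with Fc-Eda higher, were seen in 3.98% of all probe sets, and with Fc-Eda lower in 5.11%. The differences within the pairs were 0.88, 0.44 and 0.68, with a mean of 0.67 ± 0.22 (SD, n = 3), or 1.59-fold (95% interval in limma 1.31 to 1.93). Of all probe sets, 0.335% had a larger mean difference.

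For Edar the tests named in the study's methods, as rerun here, fell on both sides of the threshold. The study listed probes with q under 0.05 in at least 1 of its 3 tests. Its list was longer, in each direction, than the same rule gave here. The unadjusted p was 0.0016 in limma, and after adjustment over all probe sets q was 0.34. IBMT, in which the expected variance follows the level, gave Edar q = 0.0445 and called 0.339% of all probe sets higher, and with a locally linear in place of a locally quadratic variance curve its q was 0.0586. The Cyber-T type test, which blends a gene's variance with that of probe sets of like level, gave q = 0.00396 for Edar and called 0.624% of all probe sets higher. Edar stayed under 0.05 in that test when any 1 pair was left out (q between 0.00126 and 0.0384). In IBMT its q was 0.253 without pair 1, and under 0.05 without pair 2 and without pair 3. With 2 pairs left, the Cyber-T type test takes the variance mostly from probe sets of like level (prior weight 10). Its q-values on 2 pairs therefore say little about agreement between the pairs. An exact sign-flip test over 3 pairs cannot give a two-sided p under 0.25. In RNA from pooled buds, a change in the share of cells that express Edar and a change in RNA per cell cannot be told apart.

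Tnfrsf19 (ENSMUSG00000060548_at), the Troy receptor, had the second largest difference and the tightest controls of the 3 receptors. In control medium it measured 8.80, 8.89 and 8.79 on the log2 scale, and after Fc-Eda treatment 9.06, 9.25 and 9.22. Here too the groups did not overlap, and the control arrays spanned 0.10. Within the pairs the differences were 0.25, 0.36 and 0.44, with a mean of 0.35 ± 0.09 (SD, n = 3), which is 1.28-fold (95% interval in limma 1.10 to 1.48). Limma gave an unadjusted p of 0.00846 and q = 0.473 for this gene, IBMT q = 0.0815 and the Cyber-T type test q = 0.0311. The last of these was lost without pair 2 (q = 0.149) and without pair 3 (q = 0.172), and was 0.00323 without pair 1. In IBMT the q of Tnfrsf19 was 0.207 without pair 1, 0.359 without pair 2 and 0.04 without pair 3.

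Eda2r (ENSMUSG00000034457_at), the receptor of the A2 isoform, varied more between pairs than between conditions. Its control values were 4.16, 4.95 and 4.57 and its values after Fc-Eda treatment 4.22, 4.78 and 4.59, on the log2 scale. Pair 2 was the highest and pair 1 the lowest in both conditions. The differences of 0.066, -0.17 and 0.020 average to -0.026 ± 0.12 (SD, n = 3), and the 95% interval in limma runs from 0.84-fold to 1.15-fold (q = 0.825). The sign of this mean changed with normalization, to 0.055 after quantile normalization.

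The transcript of the ligand itself was read by a dim probe set. Eda (ENSMUSG00000059327_at) had control values of 3.77, 3.57 and 3.56 and treated values of 3.64, 3.57 and 3.70 on the log2 scale, near the lower quartile of all probe sets, which was 3.45 to 3.74 on the 6 arrays. The mean difference was 0.0036 ± 0.14 (SD, n = 3), with 1 pair lower, 1 pair at 0.0032 and 1 pair higher (limma q = 0.851). It moved with normalization, to 0.082 after quantile normalization, 0.060 when each array was centred and 0.086 after cyclic loess, and the difference of pair 1 turned from -0.13 to between 0.051 and 0.15. All 6 arrays are of Eda null buds and the added ligand is a protein. The lesion of the allele and the place of the probes were not compared here, so this value is no check of the genotype, and whether it lies above background was not judged.

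**Figure D2:**
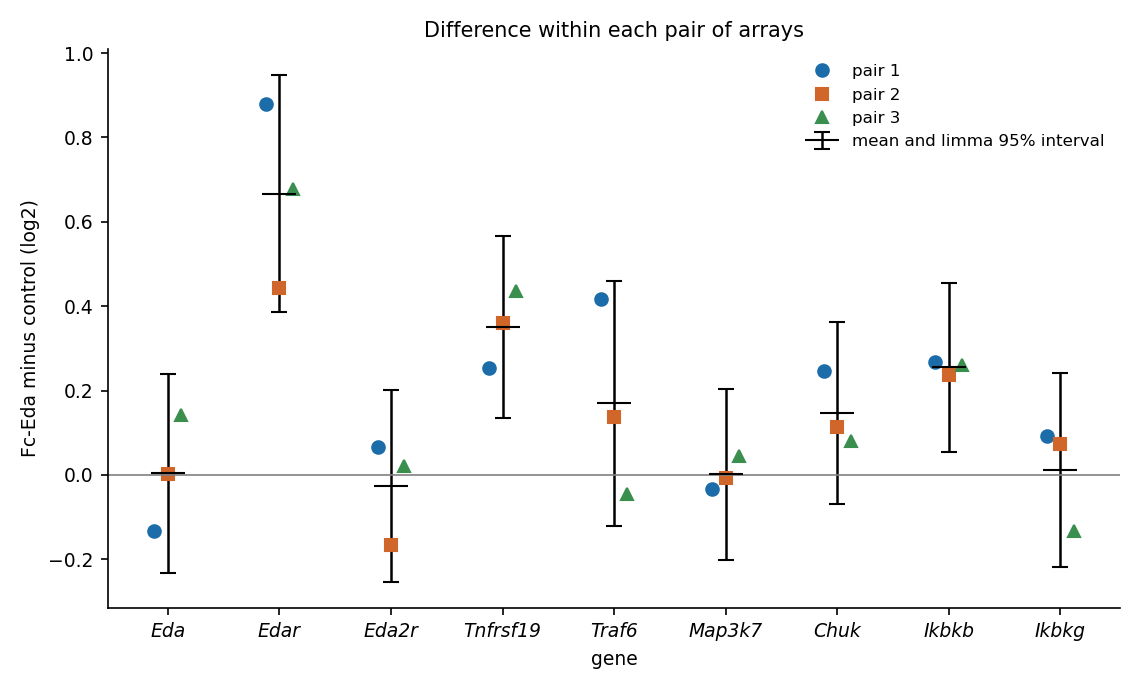
The difference between Fc-Eda and control on the log2 scale (y axis) for each of the 9 genes (x axis), with 1 coloured point per pair and black bars for the mean and its 95% interval in limma before adjustment over all probe sets. The intervals of Edar, Tnfrsf19 and Ikbkb lie above 0, and those of the other 6 genes include 0.

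The promoters of genes that were higher in every pair are shown because the pathway ends in a transcription factor that binds DNA. Of the 4 such genes, Edar, Tnfrsf19 and Chuk have an entry in the RefSeq table of build GRCm38.p6, whose windows of 300 bases run from 250 bases before a gene's start to 50 after it. The windows are chr10:58675647-58675946 on the minus strand for Edar, chr14:61046806-61047105 on the minus strand for Tnfrsf19 (the outer of its 2 listed starts) and chr19:44107428-44107727 on the minus strand for Chuk. Capitals mark matches on either strand to GGGNNNNNCC, the core of the κB motif bound by NF-κB.
Edar: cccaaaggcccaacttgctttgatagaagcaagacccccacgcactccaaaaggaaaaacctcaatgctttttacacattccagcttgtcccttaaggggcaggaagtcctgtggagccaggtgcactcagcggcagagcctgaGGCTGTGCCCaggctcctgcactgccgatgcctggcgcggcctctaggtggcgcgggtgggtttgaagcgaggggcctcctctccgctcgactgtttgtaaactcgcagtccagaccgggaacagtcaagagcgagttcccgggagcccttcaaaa
Tnfrsf19: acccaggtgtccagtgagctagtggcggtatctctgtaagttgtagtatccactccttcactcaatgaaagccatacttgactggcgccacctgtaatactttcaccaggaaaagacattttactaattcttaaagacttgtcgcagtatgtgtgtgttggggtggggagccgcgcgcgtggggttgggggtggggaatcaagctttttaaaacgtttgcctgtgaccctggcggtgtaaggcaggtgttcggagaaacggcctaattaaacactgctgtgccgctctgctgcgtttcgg
Chuk: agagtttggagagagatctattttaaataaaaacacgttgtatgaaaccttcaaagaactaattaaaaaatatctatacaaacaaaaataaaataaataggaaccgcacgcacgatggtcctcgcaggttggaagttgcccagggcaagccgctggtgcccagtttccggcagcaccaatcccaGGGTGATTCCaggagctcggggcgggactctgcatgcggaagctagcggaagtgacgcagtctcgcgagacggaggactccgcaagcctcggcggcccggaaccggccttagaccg

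The Edar window held 1 match, which began at base -106 relative to the start, and the Chuk window 1, which began at base -66. Neither window of Tnfrsf19 held a match, which says only that these letters are not in these windows. The motif is loose, and 50.8% of the 32851 promoter windows of this length in the table held at least 1 match. Among the 8 members with an entry, 8 of 12 windows did, including those of Eda and Map3k7, whose mean values hardly differed between conditions.

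The adaptor and the kinase downstream of the receptors had smaller mean differences than Edar and Tnfrsf19. Traf6 (ENSMUSG00000027164_at), a ubiquitin ligase that links several receptors to Tak1, had control values of 7.16, 7.47 and 7.59 and treated values of 7.58, 7.61 and 7.54 on the log2 scale. The treated arrays lay close together (SD 0.035) while the controls were spread (SD 0.22), with the control of pair 1 lowest. The differences of 0.42, 0.14 and -0.046 average to 0.17 ± 0.23 (SD, n = 3; limma q = 0.751). The mean was 0.045 without pair 1 and 0.28 without pair 3, so the size depends on both.

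Map3k7 (ENSMUSG00000028284_at), the Tak1 kinase that phosphorylates the IκB kinase, had the mean difference closest to 0 of the 9 genes on the deposited values. It measured 7.73, 7.67 and 7.58 in control medium and 7.70, 7.66 and 7.63 after Fc-Eda treatment. The differences were -0.033, -0.0068 and 0.045, with a mean of 0.0016 ± 0.040 (SD, n = 3). The 95% interval in limma runs from 0.87-fold to 1.15-fold (q = 0.853). The mean turned to -0.044 after quantile normalization and -0.043 after cyclic loess.

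None of the 3 subunits of the IκB kinase passed the threshold in limma, and their differences were not tested against each other. Ikbkb (ENSMUSG00000031537_at), the catalytic subunit β of the canonical pathway, had control values of 6.40, 6.43 and 6.74 and treated values of 6.67, 6.67 and 7.003 on the log2 scale. The groups overlapped, because both arrays of pair 3 were high. Within the pairs the differences were 0.27, 0.24 and 0.26, with a mean of 0.25 ± 0.016 (SD, n = 3), the smallest spread of the 9 genes on the deposited values. That spread was 0.036 after quantile normalization, 0.12 when each array was centred and 0.044 after cyclic loess, so that Chuk was tighter after cyclic loess, with 0.038, and Tnfrsf19 with centred arrays, with 0.051. This is 1.19-fold (95% interval in limma 1.04 to 1.37), with an unadjusted p of 0.0217 in limma and q = 0.629. Limma, IBMT and the Cyber-T type test did not call it (q = 0.283 in both IBMT and the Cyber-T type test), and without pair 1 the Cyber-T type test gave q = 0.0214. An unmoderated paired test, which rests on the gene's own 3 differences alone and is not one of the study's 3 array tests, gave Ikbkb 0.00134 unadjusted on the deposited values and 0.76 after Benjamini-Hochberg adjustment over all probe sets.

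Chuk (ENSMUSG00000025199_at), the catalytic subunit α, which also serves the noncanonical NF-κB pathway, measured 6.40, 6.63 and 6.70 in control medium and 6.65, 6.74 and 6.78 after Fc-Eda treatment. The treated array of pair 1 lay among the controls, so the groups overlapped. The differences of 0.25, 0.11 and 0.081 average to 0.15 ± 0.088 (SD, n = 3), or 1.11-fold with a 95% interval in limma of 0.95 to 1.29 (q = 0.751). Without pair 1 the mean of Chuk was 0.097. Ikbkg (ENSMUSG00000004221_at), the regulatory subunit Nemo, had the closest controls of all, at 5.30, 5.26 and 5.28, and treated values of 5.39, 5.33 and 5.14. Its differences were 0.093, 0.073 and -0.13, with a mean of 0.011 ± 0.13 (SD, n = 3; limma q = 0.844), and the 95% interval runs from 0.86-fold to 1.18-fold.

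The shift of pair 1 depends on level and bears on these differences. Among the probe sets within 0.5 of a gene's own mean log2 value, the median difference in pair 1 was between 0.11 and 0.12 around Edar, Chuk and Ikbkb, 0.13 around Traf6 and Map3k7 and 0.095 around Tnfrsf19. Around the dimmer genes it was negative, at -0.28 for Eda, -0.24 for Eda2r and -0.078 for Ikbkg. In pairs 2 and 3 these medians lay between -0.013 and 0.019 for all 9 genes. With the local median taken off in each pair, the mean difference of Edar was 0.63 ± 0.16 (SD, n = 3), that of Tnfrsf19 0.32 ± 0.14, that of Ikbkb 0.22 ± 0.052 and that of Chuk 0.11 ± 0.031. The same 4 genes were then higher in every pair. Traf6 came to 0.12 ± 0.17 and Map3k7, where the sign turned, to -0.047 ± 0.11. The dimmer genes came to 0.089 ± 0.083 for Eda, 0.049 ± 0.24 for Eda2r, where the sign turned, and 0.038 ± 0.15 for Ikbkg.

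**Figure D3:**
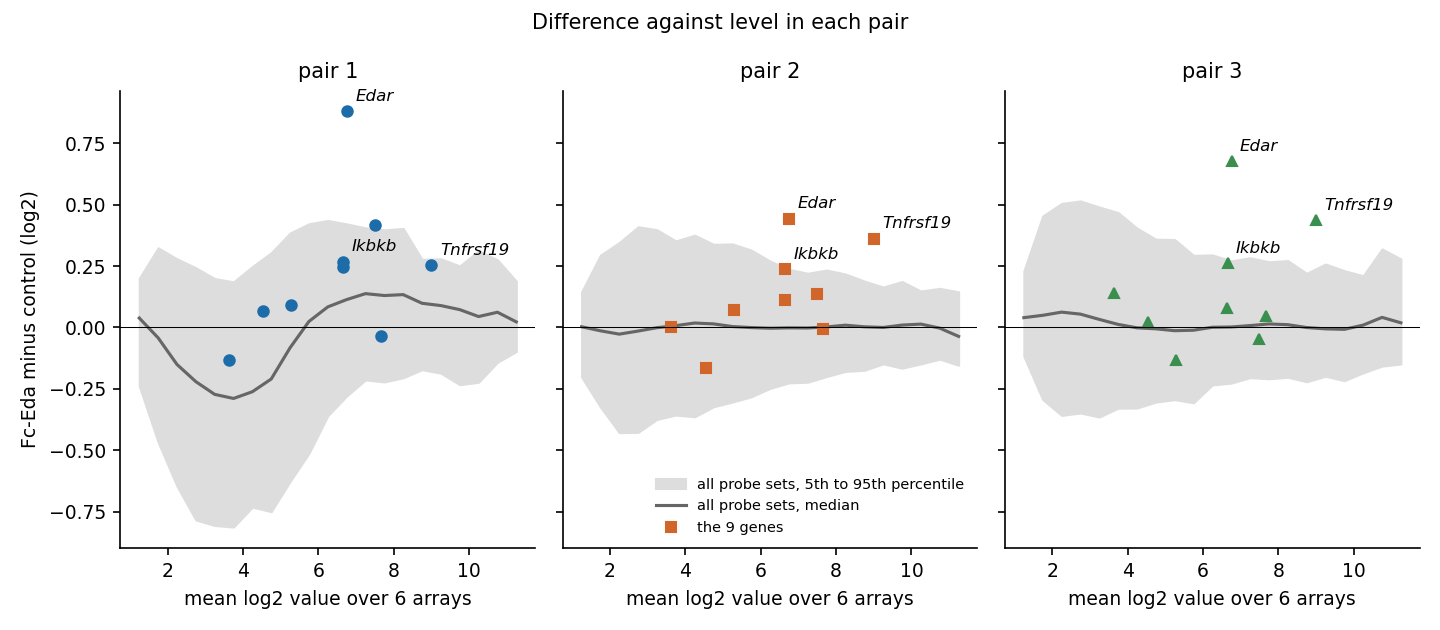
The difference between Fc-Eda and control on the log2 scale (y axes) against the mean log2 value over the 6 arrays (x axes) in each pair, with the 9 genes as points, the median of all probe sets as a line and their 5th to 95th percentile as a band, in bins of 0.5 log2 units. In pair 1 the line lies below 0 in the bins around 1.75 to 5.25 and above 0 in the dimmest bin and the brighter ones. Edar lies above the band in all 3 pairs.

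Seen against probe sets of its own level, Edar was beyond the 95th percentile in each pair. In the bin around a log2 value of 6.75 this percentile was 0.42, 0.24 and 0.27 in pairs 1, 2 and 3, where Edar had 0.88, 0.44 and 0.68. Tnfrsf19, in the bin around 9.25, was under it in pair 1 (0.25 against 0.28) and over it in pairs 2 and 3 (0.36 against 0.16 and 0.44 against 0.26). Ikbkb, in the bin around 6.75, stayed under it in all 3 pairs. The margin was wide in pair 1 (0.27 against 0.42) but narrow in pair 2 (0.2366 against 0.2367) and pair 3 (0.261 against 0.271).

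**Figure D4:**
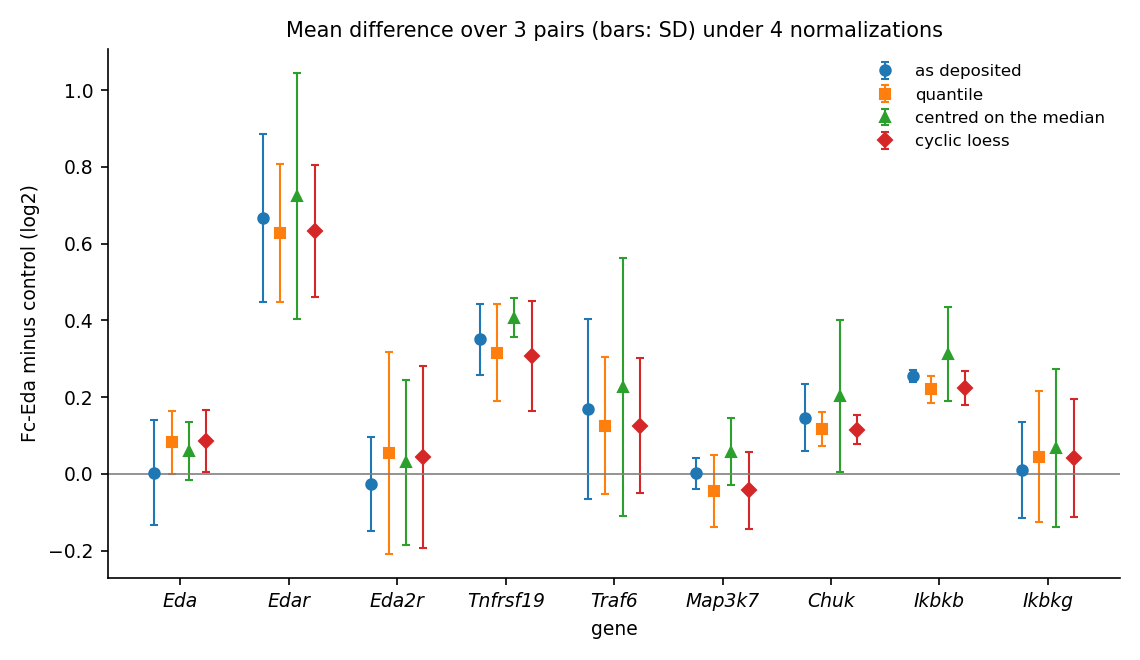
The mean difference between Fc-Eda and control on the log2 scale (y axis) for each of the 9 genes (x axis) on the deposited values and after 3 further normalizations, with bars for the SD of 3 pair differences. Edar ranges from 0.63 to 0.72, Tnfrsf19 from 0.31 to 0.41 and Ikbkb from 0.22 to 0.31, and the means of Eda2r and Map3k7 change sign.

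The probe sets whose 3 pair differences were most like those of Edar were looked up by their mean absolute distance from it over the 3 pairs. The nearest, ENSMUSG00000026107_at, had differences of 0.71, 0.43 and 0.66 (distance 0.066; limma q = 0.312), and the next, ENSMUSG00000024235_at, had 0.85, 0.42 and 0.51 (distance 0.070; limma q = 0.386). The files do not pair these identifiers with names.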

How the data were processed

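Per array, the authors deposited a log2 value for each Ensembl gene identifier, made with RMA according to the submitters' processing notes; the version and the probe set definition are not given in the sources used here. No value was missing. Treatment was tested in limma 3.58.1 (R 4.3.3) with the replicate number as a block, since the study's methods pair treatment and control and each embryo was divided between them. The deviations of paired arrays from their group means correlated with r = 0.079, 0.29 and 0.29. Storey q-values (spline of 3 degrees of freedom) were computed over all 25949 probe sets, with a threshold of 0.05. IBMT (loess span 0.75) and the Cyber-T type test (window 101, prior weight 10) were rewritten from their formulas and may differ from the authors' programs. All were tested on simulated data with independent noise. The simulation held no pair effect and no shift of pair 1, so it does not show how the tests behave under these. The 9 genes were reported whatever their values. The genes and lists were chosen with earlier results of these data known. A further list of 23 pathway genes and the cell type markers were not analysed here, because the reference tables pair none of the identifiers with names. Alternatives were other tests, adjustments, filters on level, normalizations and leaving out each pair. IBMT with a locally linear curve, these tests on 2 pairs at a time, the subtraction of local medians and the count of genes higher in every pair were chosen after seeing the data. The number of arrays limits the precision.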

Additional observations from a re-analysis of the deposited data

How the results depend on the processing

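Limma called 0 of the 9 genes and 0 probe sets in all, higher or lower, at a q-value of 0.05, and these counts were also 0 with Benjamini-Hochberg adjustment, above the 25th percentile of level, after quantile normalization and after cyclic loess. Genes of the 9 called higher numbered 1 in limma with trend and robust moderation and in IBMT (Edar in both), 2 in the Cyber-T type test and in the rule of at least 1 of 3 tests (Edar and Tnfrsf19), and 3 in the unmoderated paired test without adjustment (with Ikbkb). None was called lower in any setting. Over all probe sets, higher and lower calls were 90 and 6 in limma with trend, 88 and 6 in IBMT, 71 and 5 in IBMT with a locally linear curve, 162 and 31 in the Cyber-T type test and in at least 1 of 3 tests, 802 and 696 in the unmoderated paired test without adjustment, 0 and 1 in it after adjustment, 85 and 6 above the median level, and 56 and 1 after median centring of the arrays. With no replicate block limma called 3 probe sets higher and 0 lower, and no call among the 9 genes changed.

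Leaving out pair 1, 2 or 3, limma called 0, 5 and 10 probe sets higher and 0, 0 and 1 lower, IBMT 0, 54 and 256 higher and 0, 2 and 269 lower, and the Cyber-T type test 337, 82 and 78 higher and 175, 8 and 25 lower. Among the 9 genes, limma called 0 each time, IBMT 0, 1 and 2 higher and the Cyber-T type test 3, 1 and 1 higher. The 3 were Edar, Tnfrsf19 and Ikbkb in the Cyber-T type test without pair 1. With 2 pairs that test takes the variance mostly from other probe sets, so these calls say little about agreement between the pairs. Edar, Tnfrsf19, Chuk and Ikbkb were higher in every pair under all 4 normalizations and with the local median taken off. With a pair left out they numbered 5 or 6 together with genes that the missing pair had kept out. Over the 3 further normalizations, the 3 pairs left out and the subtraction of local medians, the mean difference of Edar ranged from 0.56 to 0.78. That of Tnfrsf19 ranged from 0.31 to 0.41. Changes of sign were seen in Eda2r (0.055 after quantile normalization, 0.030 when centred, 0.045 after cyclic loess, 0.043 without pair 2), Map3k7 (-0.044 after quantile normalization, -0.043 after cyclic loess, -0.020 without pair 3), Ikbkg (-0.031 without pair 1, -0.021 without pair 2) and Eda (-0.065 without pair 3), all of them not past the threshold. With a pair left out these 4 genes ranged from -0.073 to 0.043, from -0.020 to 0.019, from -0.031 to 0.083 and from -0.065 to 0.072. With the local median taken off, for which no q-value was computed, Eda2r (0.049) and Map3k7 (-0.047) changed sign as well. Where calls differ between tests, the cause was not tested. No detection calls were used, so signal over background limits the reading of dim probe sets such as that of Eda.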
